A study of Mus musculus with 9 samples.

Results

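Complexes II to V of the mitochondrial respiratory chain and ATP synthase were followed in gastrocnemius muscle through the nuclear genes that encode their subunits. The genes were the rows of the expression table named Sdha to Sdhd, Cyc1, or with names beginning Uqcr, Cox4 to Cox8 or Atp5, without pseudogene names. This gave 44 genes of the 13179 in the table, 4 for complex II, 9 for complex III, 15 for complex IV and 16 for complex V. RNA-seq was made from 9 libraries in 3 groups of 3, all from mice fed a high-fat diet for 6 weeks. The groups were control, a knockout of p38alpha alone (p38alphaMCK-KO, here p38α KO) and a knockout of p38alpha and p38gamma (p38alpha/gammaMCK-KO, here p38α/γ KO). MCK is the usual abbreviation of muscle creatine kinase, whose promoter is widely used to drive Cre in striated muscle fibres. The labels do not spell it out, and under such a driver other cells of the tissue keep the genes. The labels used here give no age and no genotype detail for the controls. They do not tie each library to a separate animal, so the p-values measure the spread between libraries, which may be technical.

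Complex II, succinate dehydrogenase, passes electrons from succinate to ubiquinone. Complex III passes them from ubiquinol to cytochrome c, and complex IV, cytochrome c oxidase, passes them on to oxygen. Complexes III and IV pump protons, and complex V, ATP synthase, lets them flow back through a membrane rotor to make ATP. Complexes III, IV and V each combine nuclear-encoded subunits with subunits encoded in mitochondrial DNA, cytochrome b alone in complex III, and several complex IV subunits exist as paired genes, one used in most tissues and one used mainly in heart and skeletal muscle. p38α (Mapk14) and p38γ (Mapk12) are stress-activated kinases.

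Values are the deposited normalised counts, one unit for all libraries, and log2 differences are of value plus 1. The reads behind each library, inferred from the step of its values, numbered 23821000 to 27944000. Mapk14 was 150 ± 7.01 (SD, n = 3) in control, 43.2 ± 2.63 in p38α KO and 44.8 ± 9.03 in p38α/γ KO, and Mapk12 was 143 ± 7.74, 102 ± 4.46 and 33.2 ± 2.18. Library p38α KO 1 stood apart from its group: the fast myosin gene Myh4 was 16781 in it, against 40520.5 and 49300 in the other p38α KO libraries and 50577 to 54053 in control. Fast-fibre markers were present in every library, with summed values of 102601 to 111939 in control, 53627 to 98324 in p38α KO and 71367 to 73006 in p38α/γ KO. Genes were called at a limma adjusted p below 0.05 over 13137 tested genes, and every one of the 44 was tested. Bulk RNA cannot tell more cells of a type from more RNA per cell. Many of these genes have processed pseudogenes of near-identical sequence, so the assignment of their reads is uncertain.

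Most complex II to V genes stood above control in both knockouts, by modest amounts. In p38α/γ KO 15 of 44 genes rose and 0 fell, 34.1% against 11.2% higher and 14.4% lower (25.6% either way) among all tested genes. In p38α KO 2 of 44 rose and 0 fell, 4.55% against 7.32% higher and 10.4% lower (17.8% either way). The median log2 difference over the 44 genes was 0.29 in p38α/γ KO, with 38 positive, and 0.25 in p38α KO, with 40 positive, against medians of 0.02 and 0.01 over all tested genes. Both comparisons use the same 3 control libraries. All 3 knockout libraries lay above all 3 control libraries for 28 genes in p38α/γ KO, 63.6% against 26.4% of tested genes, and for 18 genes in p38α KO, 40.9% against 17.6%. They lay below for 2 genes (Sdha and Atp5s) and 1 gene (Atp5s), where 28.6% and 21.1% of all tested genes did so.

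The 15 calls in p38α/γ KO changed with the libraries used. With the replicate number as a block, 5 of them passed in the fit of 9 libraries (Atp5l, Cox4i1, Cox6a1, Cox7c and Cox8a), and all 15 among 25 passed in the block fit of the 6 libraries compared, where Sdha and Atp5s fell. Of all tested genes, 7.83% and 20.4% were higher in these 2 block fits, against 11.2% in the main fit. Leaving out any 1 control library left 1 gene, Cox6a1, where 3.40% to 5.47% of all tested genes were higher. Leaving out p38α/γ KO 2 or 3 left 0, with 2.50% and 3.28% of all tested genes higher. Leaving out p38α KO 1 gave 25, with 19.3% of all tested genes higher, and leaving out p38α KO 2 gave 8, with 9.07%. In p38α KO, the block left 0 genes, with 4.83% of all tested genes higher, against 7.32% in the main fit. Leaving out any control library left 0 there, with 2.11% to 2.83% of all tested genes higher. Leaving out p38α KO 1 or p38α/γ KO 2 or 3 left Cox6a1, with 7.21%, 5.87% and 5.18% of all tested genes higher. Leaving out p38α KO 3 gave 10, with 11.4% of all tested genes higher. Scaling all libraries to the same total gave 35 higher in p38α/γ KO and 23 in p38α KO, where 25.4% and 19.1% of all genes were higher, and put the median of all tested genes at 0.20 and 0.19, from 0.02 and 0.01. Relative to that median the genes stood 0.30 and 0.27 higher, against 0.28 and 0.24 under the deposited scaling.

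**Figure D1:**
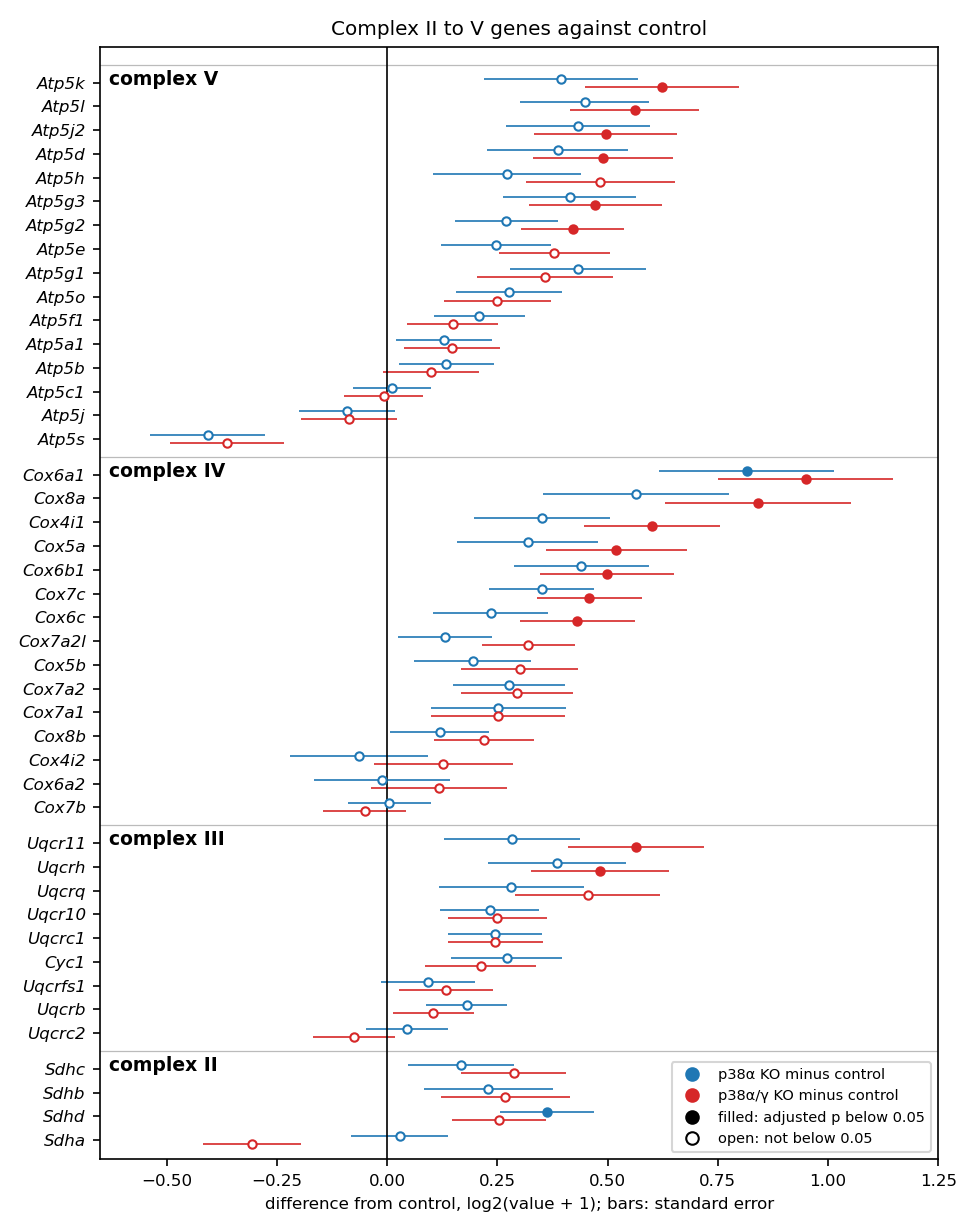
Log2 difference from control of each of the 44 genes, by complex, in p38α KO (blue) and p38α/γ KO (red), with bars of 1 standard error and filled points at adjusted p below 0.05. Cox6a1 and Cox8a lie farthest to the right in p38α/γ KO, at 0.95 and 0.84, and Atp5s and Sdha farthest to the left, at -0.36 and -0.31.

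The 4 complex II genes did not move alike. Sdhd, a membrane anchor of the complex, was 250, 216 and 223 in control, 340, 282 and 267 in p38α KO and 261, 275 and 286 in p38α/γ KO. Both knockout groups lay wholly above control. Sdhd rose in p38α KO by 0.36 ± 0.11 (SE) on the log2 scale (adjusted p = 0.0434), with 0.25 ± 0.11 and adjusted p = 0.102 in p38α/γ KO. Without p38α KO 1 the difference in p38α KO was 0.26 (adjusted p = 0.0576), and it kept its call in 1 of 9 fits that left out a library. Sdha, the catalytic flavoprotein, was 1029, 858 and 896 in control, 868, 1008 and 961 in p38α KO, and 808, 677 and 765 in p38α/γ KO, where every library lay below control. Its log2 difference in p38α/γ KO was -0.31 ± 0.11 (adjusted p = 0.0670, and 0.0275 without p38α KO 1). Sdhb, the iron-sulfur subunit, was 421, 338 and 404 in control, 548, 459 and 370 in p38α KO and 438, 453 and 508 in p38α/γ KO, and did not pass. Sdhc, the other membrane anchor, was 338, 291 and 305 in control, 406, 342 and 306 in p38α KO and 358, 362 and 421 in p38α/γ KO, and did not pass either.

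In p38α/γ KO the catalytic gene of complex II and its partners lay on opposite sides of control. The ratio of Sdha to each partner was therefore taken, after these values were seen. In p38α KO all 4 log2 differences were positive, with 0.03 for Sdha. Sdha over Sdhb was 2.45, 2.54 and 2.22 in control, 1.58, 2.20 and 2.599 in p38α KO and 1.85, 1.49 and 1.51 in p38α/γ KO. Sdha over Sdhc was 3.05, 2.946 and 2.942 in control, 2.14, 2.947 and 3.14 in p38α KO and 2.26, 1.87 and 1.82 in p38α/γ KO. Sdha over Sdhd was 4.12, 3.98 and 4.02 in control, 2.55, 3.57 and 3.59 in p38α KO and 3.09, 2.46 and 2.68 in p38α/γ KO. The p38α/γ KO libraries lay below control in each ratio, and the p38α KO libraries did so for Sdhd and overlapped control for Sdhb and Sdhc. No test was made of this.

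In complex III, 2 of 9 genes rose in p38α/γ KO, 22.2% against 11.2% of all tested genes, and none passed in p38α KO. Uqcr11, a small membrane subunit, was 166, 148 and 168 in control, 253, 181 and 162 in p38α KO and 211, 247 and 258 in p38α/γ KO, where it rose by 0.56 ± 0.15 (adjusted p = 0.0281). Uqcrh, the hinge subunit that contacts cytochrome c1, was 304, 269 and 296 in control, 477, 344 and 329 in p38α KO and 338, 432 and 452 in p38α/γ KO, and rose there by 0.48 ± 0.16 (adjusted p = 0.0474). The control libraries of both genes lay below all p38α/γ KO libraries. Among the others, the catalytic Cyc1 and Uqcrfs1 (Rieske protein) had log2 differences of 0.21 and 0.13 in p38α/γ KO, the core protein Uqcrc2 had -0.08, and the core protein Uqcrc1 had 0.25. Uqcrq had 0.45 (adjusted p = 0.0687), Uqcr10 0.25 and Uqcrb 0.10. Over the 9 genes the log2 difference in p38α KO ran from 0.05 to 0.39.

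Complex IV held the largest differences, in genes at low level in control. Cox6a1, the widely expressed partner of the muscle gene Cox6a2, was 15.3, 17.3 and 17.01 in control, 42.9, 26.3 and 23.4 in p38α KO and 27.7, 34.98 and 36.4 in p38α/γ KO. No library of either knockout overlapped control. Cox6a1 rose by 0.82 ± 0.20 in p38α KO (adjusted p = 0.0227, 1.76-fold) and by 0.95 ± 0.20 in p38α/γ KO (adjusted p = 0.0120, 1.93-fold). Without p38α KO 1 the difference in p38α KO was 0.56 (adjusted p = 0.0145). In p38α KO 6 of 9 fits that left out a library kept the call (highest adjusted p = 0.0801). It was lost there without any 1 control library, with the replicate block (adjusted p = 0.0511) and with the 6 libraries compared alone. In p38α/γ KO 7 of 9 fits that left out a library kept the call. It was lost without p38α/γ KO 2 or 3 (highest adjusted p = 0.0541).

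Cox6a2 was 589, 541 and 612 in control, 735, 538 and 481 in p38α KO and 559.8, 631 and 706 in p38α/γ KO, with groups that overlapped and log2 differences of -0.01 and 0.12 (adjusted p = 0.967 and 0.587). Per kilobase of transcript, a scale on which genes can be compared, Cox6a2 was 854 and Cox6a1 28.9 in control. Cox8a, the widely expressed partner of Cox8b, was 17.6, 16.8 and 19.1 in control, 37.98, 24.9 and 20.2 in p38α KO and 25.9, 38.3 and 35.04 in p38α/γ KO. Its knockout libraries lay above control throughout. Cox8a rose by 0.84 ± 0.21 in p38α/γ KO (adjusted p = 0.0213, 1.79-fold), with 0.56 ± 0.21 and adjusted p = 0.0916 in p38α KO, and 0.32 there without p38α KO 1. Cox8b was 275, 245 and 258 in control, 322, 272 and 254 in p38α KO and 278, 292 and 339 in p38α/γ KO, with adjusted p = 0.487 and 0.169. Per kilobase in control, Cox8b was 721 and Cox8a 32.4.

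A ratio within a pair does not depend on how a library was scaled. Cox6a1 made 2.59%, 3.20% and 2.78% of the Cox6a2 value in control, 5.83%, 4.89% and 4.87% in p38α KO and 4.94%, 5.55% and 5.16% in p38α/γ KO. Cox8a made 6.37%, 6.85% and 7.40% of the Cox8b value in control, 11.8%, 9.17% and 7.95% in p38α KO and 9.31%, 13.1% and 10.3% in p38α/γ KO. The low-level partner took the larger share in every knockout library, p38α KO 1 or not. With 3 against 3 libraries the exact two-sided permutation test cannot go below p = 0.1, the value each of these 4 contrasts gave (0.2 adjusted over 12 tests in 4 pairs). Cox4i2, the partner of Cox4i1 expressed mainly in lung, was 2.98, 2.75 and 3.23 in control, 3.75, 2.45 and 2.37 in p38α KO and 2.92, 3.34 and 3.83 in p38α/γ KO, with no call. It made 0.446% to 0.4997% of the Cox4i1 value in control, 0.334% to 0.370% in p38α KO and 0.346% to 0.362% in p38α/γ KO, so both knockouts lay below control (exact permutation p = 0.1 for each). Cox7a1, the muscle form, was 205, 162 and 186 in control, 269, 206 and 190 in p38α KO and 197, 207 and 256 in p38α/γ KO. Cox7a2, its widely expressed partner, was 146, 119 and 129 in control, 187, 145 and 147 in p38α KO and 143, 164 and 176 in p38α/γ KO. Their ratio overlapped between groups, from 69.1% to 73.5% in control, 69.6% to 77.4% in p38α KO and 68.6% to 79.3% in p38α/γ KO. Cox6b2 and Cox8c, which the same rule would cover, have no row under those names in the expression table.

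**Figure D2:**
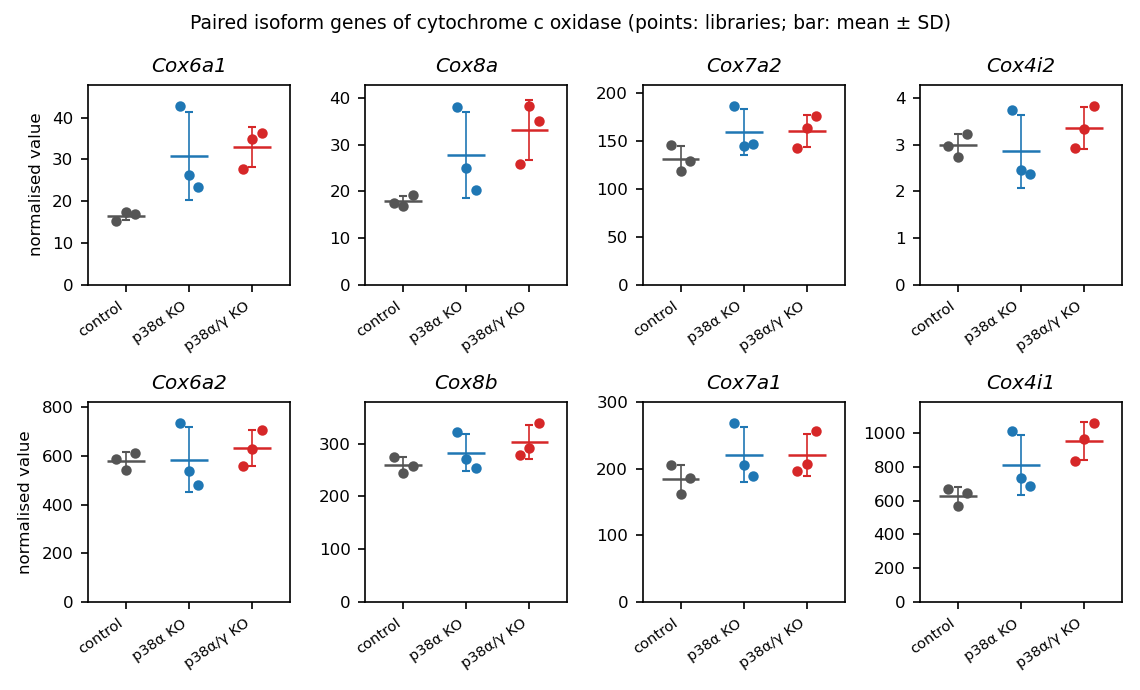
Normalised values of the paired complex IV genes in each library (points) with the group mean and SD, each panel on its own axis from 0, widely expressed genes and Cox4i2 above and their partners below. Cox6a1 and Cox8a sit at 15.3 to 19.1 in control and 20.2 to 42.9 in the knockouts, while the groups of Cox6a2 overlap and the lowest p38α/γ KO value of Cox8b, 278, sits just above the highest control value, 275.

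The starts of Cox6a1, Cox8a and Cox8b are shown because the first 2 genes rose in p38α/γ KO and Cox8b did not pass. The widely expressed Cox7a2 did not pass either (adjusted p = 0.157 in p38α KO and 0.110 in p38α/γ KO). The start of Cox6a2 is not shown, so these starts do not compare widely expressed with muscle genes. Each sequence shown runs 5′ to 3′ on the minus strand, 250 bases before to 50 after the start in RefSeq on GRCm38.p6. Capitals mark matches to a motif on either strand: the NRF-1 palindrome (GCGC, any base, then TGCGC) and CCGGAAG (GA-binding protein) in the first, CCGGAAG in the next, and the myogenic E-box CAGCTG in the last. Cox6a1 (gene at chr5:115345642-115348981) is shown at chr5:115348909-115349208, Cox8a (chr19:7215153-7217616) at chr19:7217567-7217866 and Cox8b (chr7:140898945-140900446) at chr7:140900397-140900696.
Cox6a1: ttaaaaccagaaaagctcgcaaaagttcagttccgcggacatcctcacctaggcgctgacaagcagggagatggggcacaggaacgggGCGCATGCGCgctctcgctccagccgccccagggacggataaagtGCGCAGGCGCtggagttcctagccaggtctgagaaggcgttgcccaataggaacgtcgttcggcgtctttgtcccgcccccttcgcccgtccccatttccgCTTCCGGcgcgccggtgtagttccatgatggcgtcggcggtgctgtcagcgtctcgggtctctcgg
Cox8a: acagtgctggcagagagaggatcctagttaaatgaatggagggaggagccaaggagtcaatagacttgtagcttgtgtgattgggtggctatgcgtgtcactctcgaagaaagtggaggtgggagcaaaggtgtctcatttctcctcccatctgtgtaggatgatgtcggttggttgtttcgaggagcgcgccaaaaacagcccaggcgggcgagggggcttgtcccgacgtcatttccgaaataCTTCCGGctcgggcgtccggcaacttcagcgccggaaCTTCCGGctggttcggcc
Cox8b: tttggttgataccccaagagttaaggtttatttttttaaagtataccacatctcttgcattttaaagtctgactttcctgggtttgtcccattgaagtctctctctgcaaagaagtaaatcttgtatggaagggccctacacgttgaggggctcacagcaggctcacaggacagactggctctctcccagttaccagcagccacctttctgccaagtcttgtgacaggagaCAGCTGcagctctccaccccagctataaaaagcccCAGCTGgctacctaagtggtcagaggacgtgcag
Windows were found for 32 of the 44 genes (35 windows), and 13 of those genes rose in p38α/γ KO. The NRF-1 letters were in 28.6% of the 35 windows against 4.59% of all 32817, and CCGGAAG in 34.3% against 8.86%. CAGCTG was in 5.71% against 16.3%, AANATGGCG (YY1) in 8.57% against 2.37%, and TNAAGGTCA (estrogen-related receptor) in 5.71% against 1.28%. Among genes that rose in p38α/γ KO, 4 of 13 held the NRF-1 letters and 7 of 13 the GA-binding protein letters, against 6 of 19 and 5 of 19 of the others. A match is a description of letters in a window and not a bound site.

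The other complex IV calls were among higher-level genes. Cox4i1, an early-assembled subunit, was 667, 568 and 646 in control, 1013, 733 and 684 in p38α KO and 837, 964 and 1058 in p38α/γ KO, and rose by 0.60 ± 0.15 in p38α/γ KO (adjusted p = 0.0231). Cox5a, assembled with it, was 525, 427 and 482 in control, 752, 551 and 507 in p38α KO and 601, 673 and 789 in p38α/γ KO (0.52 ± 0.16, adjusted p = 0.0406). Both lay above control in all 3 p38α/γ KO libraries. Cox6b1, on the intermembrane side, was 373, 326 and 372 in control, 609, 443 and 419.7 in p38α KO and 433, 523 and 564 in p38α/γ KO (0.50 ± 0.15, adjusted p = 0.0393). Cox6c was 385, 329 and 368 in control, 509, 401 and 373 in p38α KO and 439, 490.5 and 533 in p38α/γ KO (0.43 ± 0.13, adjusted p = 0.0377). Neither gene overlapped control in p38α/γ KO, and Cox6c overlapped it in p38α KO. Cox7c was 249, 231 and 251 in control, 372, 286 and 283 in p38α KO and 304, 339.9 and 365 in p38α/γ KO (0.46 ± 0.12, adjusted p = 0.0242). Of the remaining genes, Cox5b had a log2 difference of 0.30 and Cox7b of -0.05 in p38α/γ KO. Cox7a2l, which joins complexes III and IV into supercomplexes and is not a standard subunit, was 148, 141 and 155 in control, 184, 155 and 150 in p38α KO and 166, 188 and 203 in p38α/γ KO (0.32 ± 0.11, adjusted p = 0.0505).

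By count, the differences within complex V lay in the peripheral stalk and membrane part more than in the F1 part. F1 is used here for Atp5a1, Atp5b, Atp5c1, Atp5d and Atp5e. Of 10 peripheral stalk and membrane genes 5 rose in p38α/γ KO (50%), with a median log2 difference of 0.45. Of 5 F1 genes 1 rose (20%), with a median of 0.15, where 11.2% of all tested genes rose. That contrast was not tested. Among F1 genes, Atp5d, the delta subunit, was 315, 274 and 302 in control, 499.96, 353 and 330.1 in p38α KO and 358, 433 and 467 in p38α/γ KO (0.49 ± 0.16, adjusted p = 0.0475). Atp5e, the epsilon subunit, had 0.38 ± 0.13 (adjusted p = 0.0502), with all p38α/γ KO libraries above control. The catalytic and core subunits Atp5b, Atp5a1 and Atp5c1 had log2 differences of 0.10, 0.15 and -0.01. Transcripts of Atp5d and Atp5e have 931 and 421 bases, and those of Atp5b, Atp5a1 and Atp5c1 have 1916, 2471 and 1166. Atp5b and Atp5a1 were also the most abundant of the 44 genes, with control values of 2613 ± 250.4 and 2245 ± 184 (SD, n = 3).

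Atp5k and Atp5l, the e and g subunits that link ATP synthase into dimers, had the largest log2 differences of complex V in p38α/γ KO. In p38α KO Atp5l (0.45) was again the largest, but Atp5g1, Atp5j2 and Atp5g3 (0.43, 0.43 and 0.41) lay above Atp5k (0.39). Atp5k was 195, 167 and 188 in control, 318, 226 and 194 in p38α KO and 238, 312 and 302 in p38α/γ KO (0.62 ± 0.17, adjusted p = 0.0300). Atp5l was 280.4, 251 and 278 in control, 443, 309.8 and 363 in p38α KO and 334, 423 and 446 in p38α/γ KO (0.56 ± 0.15, adjusted p = 0.0240). All 3 p38α/γ KO libraries lay above control for both. Atp5j2, the f subunit, was 142, 117 and 137 in control, 222, 165 and 154 in p38α KO and 152, 198 and 212 in p38α/γ KO (0.50 ± 0.16, adjusted p = 0.0495). Atp5j, coupling factor 6, did not follow, with -0.09 in both knockouts. The 3 genes Atp5g1, Atp5g2 and Atp5g3 encode the same mature rotor c subunit. Atp5g1 was 382, 308 and 370.2 in control, 598, 446 and 402 in p38α KO and 409, 447 and 502 in p38α/γ KO (adjusted p = 0.0796 and 0.110). Atp5g2 was 206, 208 and 229 in control, 285, 252 and 240.3 in p38α KO and 244, 299.7 and 323 in p38α/γ KO (0.42 ± 0.12, adjusted p = 0.0290). Atp5g3 was 572, 478 and 546 in control, 888, 667 and 599 in p38α KO and 654, 753 and 812 in p38α/γ KO (0.47 ± 0.15, adjusted p = 0.0456). All 3 c subunit genes lay above control in every knockout library. Atp5s, a coupling factor that is no structural subunit, ran the other way, at 13.8, 12.4 and 16.2 in control, 9.10, 11.3 and 10.8 in p38α KO and 10.5, 9.69 and 12.1 in p38α/γ KO, with adjusted p = 0.0571 and 0.0657.

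None of the 44 genes passed between the 2 knockouts in limma, which does not show that the knockouts are alike. Between p38α KO and p38α/γ KO 0 of 44 genes passed, where 0.122% of all tested genes were higher in p38α KO and 0.32% lower (0.442% either way), and 1 gene had an unadjusted p below 0.05. That gene was Sdha, 0.34 ± 0.11 higher in p38α KO (adjusted p = 0.269), and it and Uqcrc2 were the 2 whose groups did not overlap, 4.55% all above against 6.73% of all tested genes, with 0 of 44 all below against 7.58%. Cox6a1 differed by -0.13 ± 0.20 and Cox8a by -0.28 ± 0.21. Without p38α KO 1, Sdha was higher in p38α KO (adjusted p = 0.0375) and 5 genes (Atp5h, Atp5k, Cox4i1, Uqcr11 and Uqcrq) were lower. In that fit 1011 of 13007 tested genes were higher (7.77%) and 851 lower, so calls rose over the whole table.

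The libraries of one group were separated by nearly all 44 genes at once. In p38α KO, library 1 was the highest of its group for 40 genes and library 3 the lowest for 37. In p38α/γ KO, library 3 was highest for 41 and library 1 lowest for 33, and control 2 was lowest of the controls for 42. Of all tested genes, 43.1% were highest of their group in p38α KO 1 and 30.4% in p38α/γ KO 3. The share of all tested genes was not taken for the lowest library. The summed value of the 44 genes was 1.57% to 1.73% of all values in control, 1.93% to 2.64% in p38α KO and 2.13% to 2.39% in p38α/γ KO, so all knockout libraries lay above all control libraries in this share. The total it is a share of was itself lower in the knockouts, at 896829 to 992509 against 1057630 to 1132170 in control. The sum itself overlapped, at 16641 to 19573 in control, 19137 to 23689 in p38α KO and 20121 to 23283 in p38α/γ KO. Over the 44 genes in p38α KO, the median log2 difference was 0.13 without p38α KO 1.

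**Figure D3:**
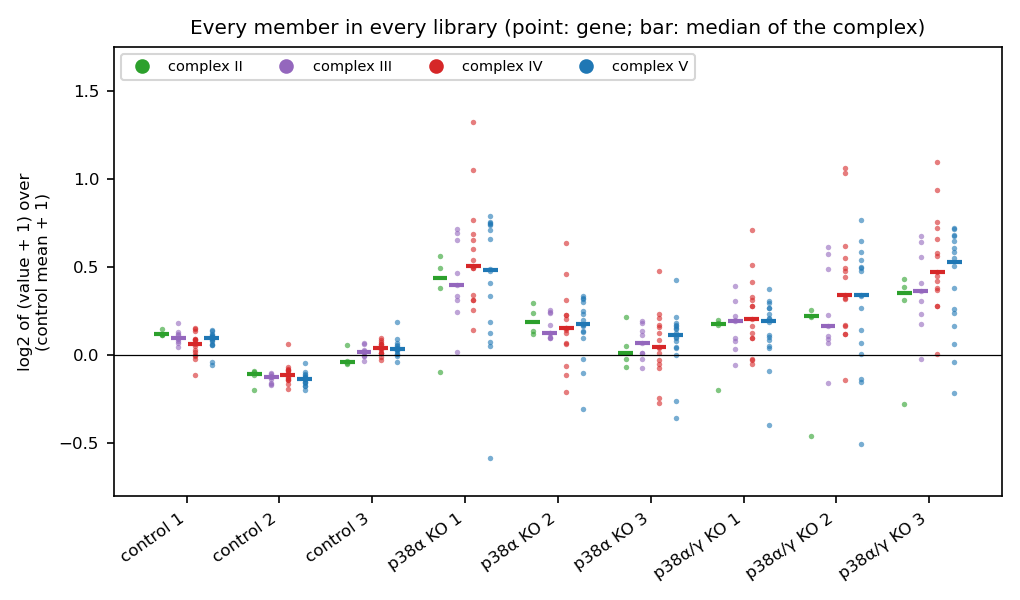
Every gene in every library as log2 of its value plus 1 over the control mean plus 1, coloured by complex, with the median of each complex as a bar. The median over the 44 genes is 0.49 in p38α KO 1, 0.16 and 0.08 in p38α KO 2 and 3, and 0.19, 0.29 and 0.43 in p38α/γ KO 1, 2 and 3.

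Transcript length moved with the differences. The 15 genes that rose in p38α/γ KO all had a transcript under 1000 bases, a limit set after the values were seen: 15 of 29 such genes rose (51.7%) and 0 of 15 longer ones. Among all genes with a length, 22.4% of 888 under 1000 bases rose and 9.97% of 11259 longer ones. Across the 44 genes Spearman's rho of length with the log2 difference was -0.51 in p38α/γ KO and -0.40 in p38α KO, and across 12147 genes it was -0.28 and -0.25, where genes share libraries and are no replicates. In the class from 500 to under 700 bases, the 13 members had a median log2 difference of 0.46 in p38α/γ KO and all 239 genes 0.25. The part of length in the result was not tested.

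**Figure D4:**
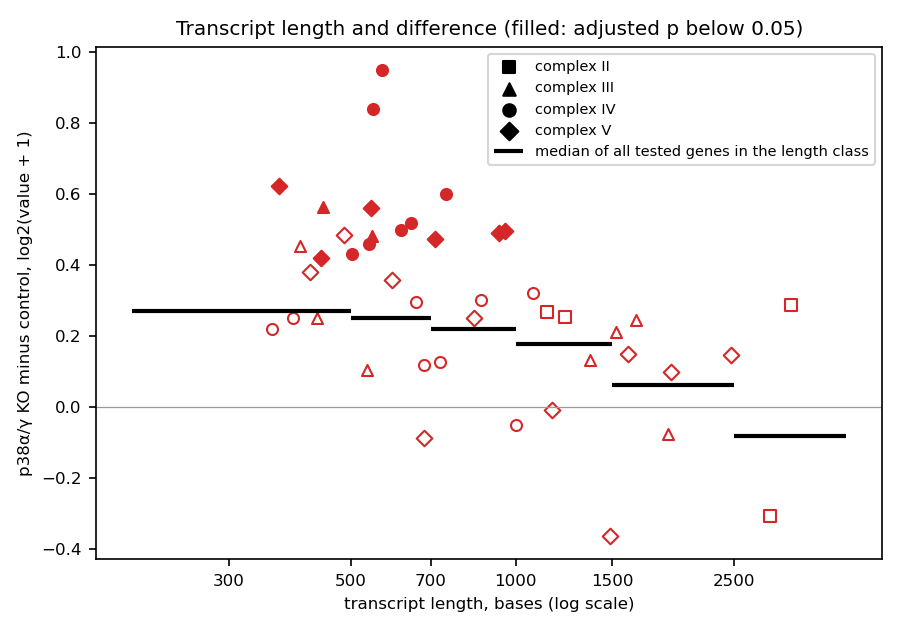
Log2 difference in p38α/γ KO against transcript length (log axis) for the 44 genes, marked by complex and filled at adjusted p below 0.05, with black bars at the median of all tested genes of each length class. Every filled point is under 1000 bases, and the bars step down from 0.27 under 500 bases to -0.08 at 2500 or more.

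Markers of other cells moved beside these genes. Among all tested genes 7.32% rose and 10.4% fell in p38α KO, and 11.2% rose and 14.4% fell in p38α/γ KO. Of 10 macrophage markers 8 rose in p38α KO and 9 in p38α/γ KO, with summed values of 124 to 169 in control, 238 to 529 in p38α KO and 312 to 508 in p38α/γ KO. Of 7 markers of fibro-adipogenic progenitors 1 and 4 rose, with sums of 863 to 1105, 907 to 1890.3 and 1383 to 1874. Of 7 fast-fibre markers 0 fell in p38α KO and 2 (Actn3 and Mybpc2) in p38α/γ KO, and of 8 slow and oxidative markers none passed in either. The slow and oxidative sums were 5324 to 6711 in control, 2961 to 10543 in p38α KO and 7882 to 9481 in p38α/γ KO, where they lay above control and 7 of 8 log2 differences were positive, with a median of 0.47. In p38α KO the highest of these sums was in library 1 and the lowest in library 3, the order seen for most of the 44 genes. Of 5 endothelial markers 0 rose in either knockout and 1 fell in p38α/γ KO, and of 6 adipocyte markers 1 fell in p38α KO. The part of these cells in the result was not tested. The highest macrophage sum in p38α KO was in library 1, which was also highest for most of the 44 genes, Cox6a1 and Cox8a among them. In p38α/γ KO the highest macrophage sum was in library 2 and the lowest in library 3. There Cox8a was highest in library 2, and Cox6a1 and most of the 44 genes in library 3.

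Genes that build the complexes were called at about the rate of all tested genes. Of 39 assembly factors, 2 rose (Cox10 and Sco2) and 3 fell (Coa5, Coa7 and Sdhaf3) in p38α KO, 5.13% and 7.69% against 7.32% and 10.4% of all tested genes. In p38α/γ KO 5 rose and 5 fell, 12.8% each way against 11.2% and 14.4%. Their median log2 difference was 0.07 in both knockouts. Cox18, which inserts a mitochondrially encoded subunit of complex IV into the membrane, was 6.03 ± 0.719 in control, 7.92 ± 0.336 in p38α KO and 12.6 ± 1.45 in p38α/γ KO (SD, n = 3), and rose in the latter by 0.95 ± 0.12 (SE, adjusted p = 0.00211). Sco2, a copper chaperone of complex IV, rose in both, by 0.54 (adjusted p = 0.0399) and 0.61 (adjusted p = 0.0213). Sdhaf3, which serves the iron-sulfur subunit Sdhb, fell by 0.47 and by 0.46 (adjusted p = 0.0253 and 0.0226). The other calls in p38α/γ KO were Cox17, Higd1a and Higd2a higher, and Atpaf1, Coa5, Cox11 and Ttc19 lower.

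Among 8 carriers and exchange genes, Slc25a5, the widely expressed ADP/ATP carrier, rose in both knockouts (0.48, adjusted p = 0.0168, and 0.41, adjusted p = 0.0239). It was 31.0, 33.6 and 34.3 in control, 54.4, 44.9 and 41.0 in p38α KO and 42.3, 46.2 and 44.3 in p38α/γ KO. The muscle carrier Slc25a4 did not pass, at 3715 ± 234, 3824 ± 151 and 3926 ± 239 (SD, n = 3). Of 6 mitochondrially encoded partners, 0 rose and 1 fell (16.7%) in p38α/γ KO, where 11.2% of all tested genes rose and 14.4% fell. In p38α KO 0 passed, where 7.32% rose and 10.4% fell. With 6 genes these counts do not stand apart from those shares. Their median log2 difference was -0.26 in p38α/γ KO and -0.27 in p38α KO, with 5 of 6 negative in each. mt-Atp8 was 1568, 1339 and 1331 in control, 518, 1102 and 913 in p38α KO and 707, 439 and 489 in p38α/γ KO, where it fell by 1.40 (adjusted p = 0.00841). It overlaps mt-Atp6, so reads of the pair cannot be fully separated, and mt-Atp6 had a log2 difference of -0.27 there (adjusted p = 0.140). mt-Co1, mt-Co3 and mt-Cytb had log2 differences of -0.44, -0.21 and -0.26, and mt-Co2 0.09.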

How the data were processed

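Normalised counts (signal) for 13179 genes were deposited by the authors as one table for 9 libraries. The submitters' processing notes name CASAVA 1.8, cutadapt, RSEM 1.3.1, limma and GRCm38, without order or annotation; how counts were scaled is not given in the sources used here. In every library each value was a whole number of reads plus 0.5, times one step, to within 2.9e-09 reads, and the read totals come from that step. Libraries were stranded, from polyA RNA, per the labels' protocols. Because the deposited values are scaled, log2(value + 1) was tested with limma 3.58.1 (R 4.3.3) with an empirical Bayes trend, on 13137 genes that reached 1 in 3 or more libraries, with all 9 libraries in one fit and Benjamini-Hochberg adjustment. The script was tested on simulated data. Transcript lengths came from GENCODE M21. The members and lists were chosen with earlier results of these data known.

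Full values are given for called genes, paired Cox genes, Atp5g1 to Atp5g3 and the Sdh genes. Deviations from the group mean in same-numbered libraries of p38α/γ KO and control had correlations of 0.11, 0.12 and 0.15. For same-numbered libraries of p38α KO and control the correlations were -0.09, -0.09 and 0.10. Differently numbered libraries of the 2 knockouts reached 0.34 and 0.35, so values of this size cannot show pairing, and the labels do not give it. The main fit used no pairing, and the replicate block was run only as an alternative. Alternatives covered scaling, filter, pseudocount, fit, block, threshold and each library left out.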

Additional observations from a re-analysis of the deposited data

How the results depend on the processing

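No call of a member changed direction in any setting run. Counts of genes higher in p38α KO, 2 as reported, were 18 with quantile normalisation, 21 with totals without the 10 most abundant genes, 0 with the 6 libraries alone, 1 without a trend, 0 with the replicate block, 9 at adjusted p below 0.1, 23 with equal totals (chosen after seeing the data) and 0 to 10 with a library left out. Lower counts, 0 as reported, were 1 with a value of at least 5 in 3 libraries and 1 at adjusted p below 0.1. There 1327 of 9785 and 1961 of 13137 tested genes were lower, against 1370 of 13137 as reported. Counts higher in p38α/γ KO were 15 as reported, where 11.2% of all tested genes were higher. They were 26 under quantile normalisation (10.3% of all tested genes higher) and 28 with the totals without 10 genes (18.8%). The 6 libraries alone gave 24 (19.9%) and the replicate block gave 5 (7.83%). Equal totals gave 35 (25.4%) and the block in 6 libraries 25 (20.4%), both chosen after seeing the data. A library left out gave 0 to 25. Lower counts, 0 as reported, were 2 with 6 libraries alone, 2 at adjusted p below 0.1, 2 with the block in 6 libraries and 0 to 2 with a library left out. Over all tested genes, 2923 of 12827 were lower with 6 libraries alone and 2940 of 12827 with the block in them. At adjusted p below 0.1 it was 2538 of 13137, against 1892 of 13137 as reported. Between the knockouts, 0 to 1 genes were higher and 0 to 5 lower in p38α KO with a library left out. The highest of both counts came without p38α KO 1, where 7.77% of all tested genes were higher. With a library left out, the share of all tested genes that were higher also moved, from 2.50% to 19.3% in p38α/γ KO. In p38α KO that share ran from 2.11% to 11.4%. The cause of these changes was not tested. Each named gene was also counted once per setting. In p38α KO a call of the main fit was lost 16 times, and a gene not called there passed 50 times. These counts were 94 and 41 in p38α/γ KO, and 0 and 4 between the knockouts. Counting error weighs most on Cox4i2, whose values were 2.37 to 3.83.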
